A study of Peromyscus polionotus with 11 samples.

Results

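Thyroid hormone activation, binding and response were followed through 5 genes in a pair of forebrain nuclei of the oldfield mouse, Peromyscus polionotus. The genes are Dio2, Thra, Thrb, Crym and Klf9. All probe sets whose only gene symbol in the platform annotation is one of these were taken, which gave 14 of the 22626 probe sets tested: 3 for Dio2, 2 for Thra, 1 for Thrb, 1 for Crym and 7 for Klf9. The samples were total RNA from micropunches of the bed nucleus of the stria terminalis (2 short-day and 3 long-day samples) and of the medial preoptic area (3 short-day and 3 long-day samples), each on its own array. No genotype difference, drug or hormone treatment is named in the labels, and neither the animals' age and sex nor the hours of light appear in the sources used here. The question put to these arrays was whether day length alters gene expression in these nuclei.

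Thyroid hormone reaches the brain mostly as the prohormone thyroxine, which the type 2 deiodinase Dio2 converts to the active hormone triiodothyronine, mainly in astrocytes and in the tanycytes that line the third ventricle. The hormone acts through the nuclear receptors Thra and Thrb, which bind DNA next to their target genes with or without ligand, and Crym, mu-crystallin, holds triiodothyronine in the cytoplasm. Klf9 is a zinc finger transcription factor whose gene is induced by triiodothyronine, and also by glucocorticoids, in neurons and other cells. In seasonal mammals and birds, day length sets local hormone activation in the mediobasal hypothalamus through Dio2. The nuclei sampled here lie rostral to that region, and both take part in sexual, parental and aggressive behaviour.

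The arrays carry probes designed for the house mouse, so that sequence differences from the oldfield mouse can lower a probe set by an unknown amount. Ranks, places beside the array median and sums over genes therefore describe array signal, and do not give the relative RNA amounts of different genes. All 11 arrays had a median intensity of 19. Of the 14 probe sets, 3 lay above that median on all arrays, 6 on some and 5 on none. The values are whole numbers, and 1 intensity unit at 19 is 0.07 on the log2 scale. Some marker genes differed between the nuclei. The summed intensity of 7 hypothalamic and preoptic neuron markers was 159 to 176 on the short-day and 162 to 168 on the long-day arrays of the bed nucleus, against 215 to 243 and 193 to 219 on those of the medial preoptic area. The neuropeptide gene Gal, a marker of the preoptic area, was lower in the bed nucleus (log2 difference -0.65, adjusted p = 0.00205, limma), and so was the homeodomain factor Lhx8 (-0.75, adjusted p = 0.0105, limma). They were the only 2 of the 7 with an adjusted p under 0.05, while 6 of the 7 were below 0 and 1 above. Hmx2, Nts, Esr1, Pgr and Calcr had means of 29.4, 15.4, 12.0, 16.8 and 12.0 in the bed nucleus. Their preoptic means were 30.0, 15.7, 11.7, 17.8 and 13.2. The 4 general neuron markers lay above the array median on all arrays, while the preoptic markers Calcr, Nts and Esr1 read at most 19.

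Short and long days differed for 0 of the 14 probe sets past the threshold of an adjusted p of 0.05 in limma, in either nucleus or in the mean of both. In the bed nucleus, where 0.0442% of all probe sets passed, the smallest adjusted p of a member was 0.192. Unadjusted p-values under 0.05 belonged to 4 of the 14, 3 higher and 1 lower in short days, while 5.79% of all probe sets were higher and 6.87% were lower at that level. In the medial preoptic area, where 0% of all probe sets passed, 0 of the 14 had an unadjusted p under 0.05 (3.5% of all probe sets did). In the mean of both nuclei, 0.0133% of all probe sets passed, and 1 member was higher and 1 lower at an unadjusted p under 0.05, beside 4.46% and 4.56% of all probe sets. The median log2 difference of the members was -0.06 in the bed nucleus and -0.04 in the medial preoptic area, beside -0.01 and 0 for all probe sets. None of the 28 95% intervals for these differences within a nucleus reached 1 or -1, the size of a doubling or its inverse. The widest bounds were -0.72 and 0.77. They are bounds on the array signal, and 5 of the 14 probe sets lay above the array median on no array. In bulk punches, fewer cells of a type and less RNA per cell cannot be told apart.

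**Figure D1:**
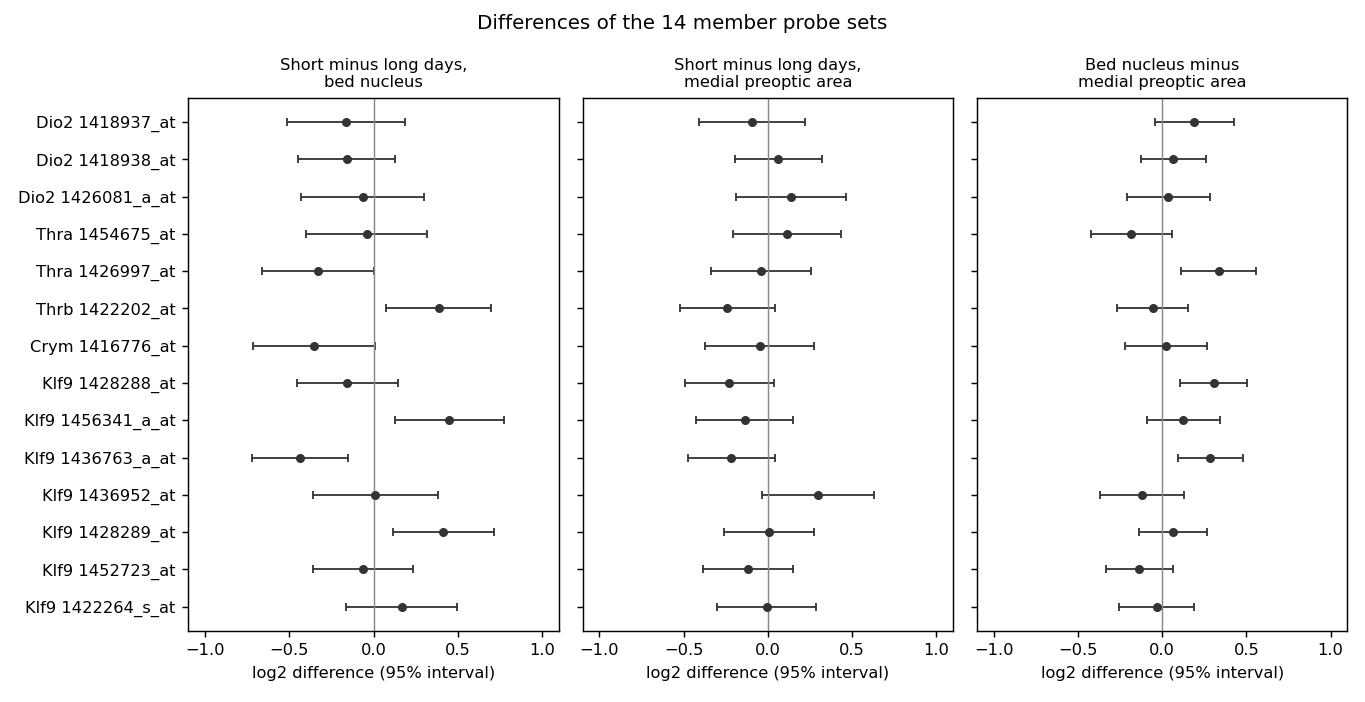
Log2 differences of the 14 probe sets (rows) with 95% intervals from the fit over 11 arrays: short minus long days in the bed nucleus (left), the same in the medial preoptic area (centre), and bed nucleus minus medial preoptic area over both day lengths (right). All intervals lie between -1 and 1, and no point passed the adjusted threshold.

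Dio2, the activating enzyme, was read clearly by 1 of its 3 probe sets, 1418937_at, which lay above the array median on all 11 arrays. It read 34 and 42 on the short-day arrays of the bed nucleus and 54, 38 and 37 on the long-day arrays. In the medial preoptic area it read 33, 37 and 32 in short days and 35, 40 and 34 in long days. The day length groups overlapped in both nuclei, and a single long-day bed nucleus array, number 1, stood above all others. Group means ran in the order bed nucleus long days (43.0 ± 9.54, SD), bed nucleus short days (38.0 ± 5.66), medial preoptic area long days (36.3 ± 3.21) and medial preoptic area short days (34.0 ± 2.65), and no neighbours in that order differed by more than their spread.

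The log2 difference of Dio2 between short and long days was -0.16 ± 0.17 (SE) in the bed nucleus, with an interval of -0.52 to 0.19 (adjusted p = 0.732, limma). The preoptic difference was -0.09 ± 0.15, with an interval of -0.41 to 0.22 (adjusted p = 1). The bed nucleus value was 0.01 when long-day array 1 was left out. Bed nucleus minus medial preoptic area gave 0.19 ± 0.11 (adjusted p = 0.538, limma), and 0.10 without that array. The other Dio2 probe sets, 1418938_at and 1426081_a_at, read 14 to 18 and 12 to 17, under the median on all arrays, with day length differences of -0.16 to 0.14.

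Markers of the cells known to make Dio2 were read beside it. The summed intensity of the tanycyte markers Rax, Gpr50, Nes and Vim was 119 to 121 in short days and 195 to 219 in long days in the bed nucleus, and 90 to 112 and 93 to 112 in the medial preoptic area. Vim, an intermediate filament gene of tanycytes and other cells, was the largest part of these sums and was lower in short days in the bed nucleus (-1.16 ± 0.20, adjusted p = 0.0407, limma). The defining tanycyte gene Rax read 10 to 20, with a short-day difference of -0.17 ± 0.18 there (adjusted p = 0.732). Nes and Gpr50 gave -0.18 and 0.11. The ependymal markers Foxj1, Rsph1 and Tekt1 summed to 49 to 55 there in short days and 57 to 71 in long days. The choroid plexus markers Ttr, Folr1 and Otx2 summed to 95 to 98 and 112 to 133. Of their short-day differences, 1 ependymal value was above 0 and 2 below, and all choroid plexus values were below. Both sums overlapped between day lengths in the medial preoptic area. On the long-day bed nucleus array 1, where Dio2 was highest, Rax (20) and Nes (31) also had their highest value of the 11 arrays. Gpr50 (16) had its tied highest, while Vim (128) was the lowest of the 3 long-day values there. Of the astrocyte markers, Slc1a2 (389) was at its highest on that array and Gfap (89) at its lowest. The neuron markers Rbfox3 (202), Syt1 (58) and Map2 (90) also peaked there, whereas Snap25 (648) was at its lowest. So did the striatal neuron markers Rgs9 (144), Pde10a (66) and Ppp1r1b (29) peak, so the peak was not particular to cells known to make Dio2. The 7 astrocyte markers summed to 4289 to 4779 in short days and 4633 to 5153 in long days in the bed nucleus, and to 4494 to 4667 and 4357 to 4694 in the medial preoptic area, mostly through the gap junction gene Gja1. The part of these cells in the Dio2 values was not tested.

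Thra, the thyroid hormone receptor that predominates in brain, was read by probe sets that did not move alike. The brighter, 1454675_at, read 24 and 24 in short days and 25, 25 and 24 in long days in the bed nucleus. The preoptic arrays read 24, 38 and 26 in short days and 29, 28 and 23 in long days. Its values were flat in the bed nucleus, and the 1 high value was on the short-day preoptic array 5. The short minus long day difference was -0.04 ± 0.17 in the bed nucleus (adjusted p = 0.948, limma) and 0.11 ± 0.15 in the medial preoptic area (adjusted p = 1), and the preoptic value was -0.09 without array 5. The group means were 29.3 ± 7.57 (SD) and 26.7 ± 3.21 in the preoptic short- and long-day groups and 24.0 ± 0 and 24.7 ± 0.577 in those of the bed nucleus, differences within the spread of the preoptic arrays.

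The dimmer Thra probe set, 1426997_at, read 14 and 18 in short days and 22, 20 and 18 in long days in the bed nucleus, against 14, 16 and 12 in short days and 13, 15 and 15 in long days in the medial preoptic area. In long days the nuclei did not overlap, and in short days they did. Bed nucleus minus medial preoptic area was 0.48 ± 0.14 in long days (unadjusted p = 0.00323, adjusted p = 0.226, limma), 0.19 ± 0.16 in short days and 0.34 ± 0.11 over both (adjusted p = 0.167). The brighter probe set gave -0.18 ± 0.12 for the last of these (adjusted p = 0.570, limma), the opposite sign. The test of whether the day length effect differed between the nuclei gave -0.29 for the dimmer one (adjusted p = 0.760, limma).

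**Figure D2:**
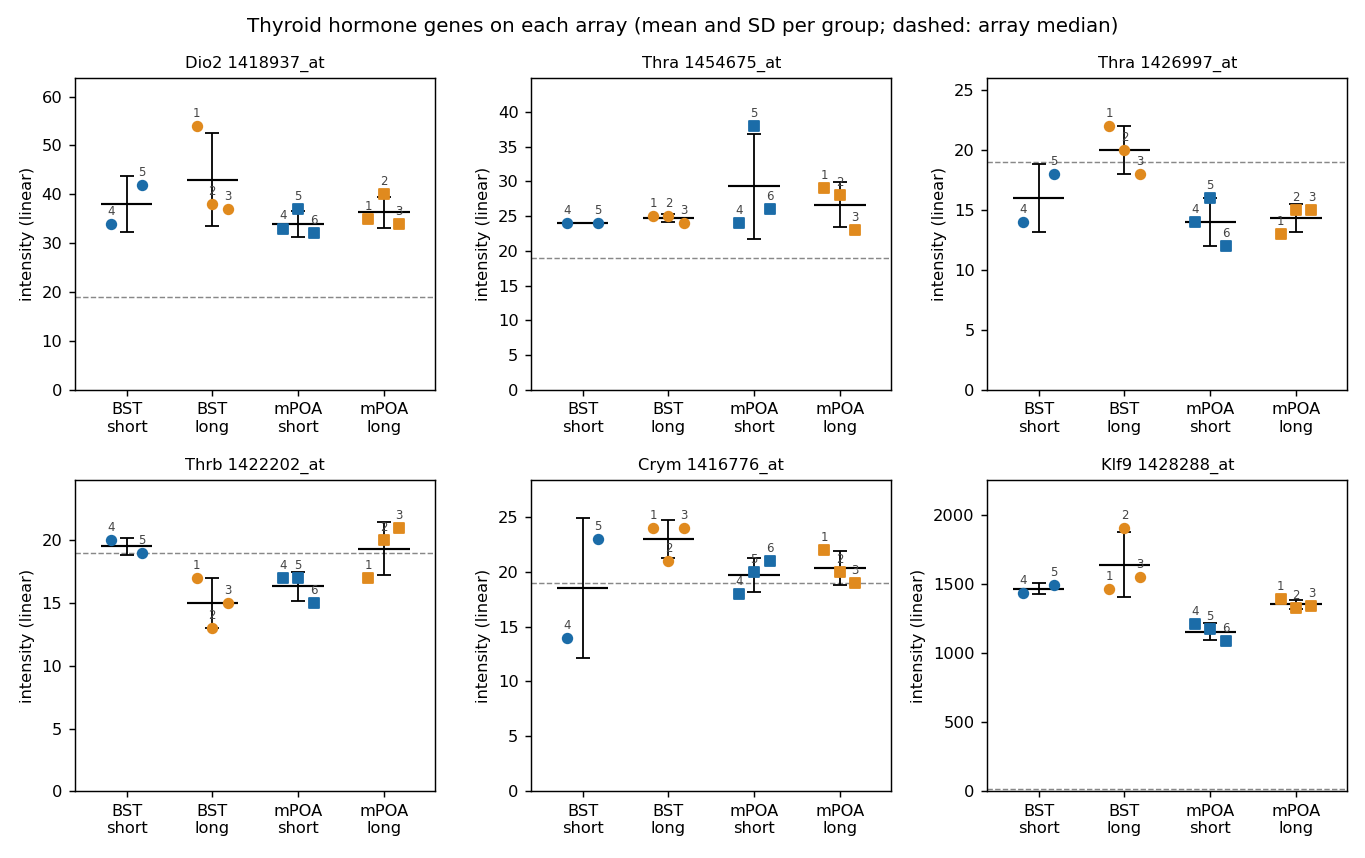
Deposited intensity (vertical axis, linear, from 0) of 6 probe sets on each array, by nucleus (BST, bed nucleus; mPOA, medial preoptic area) and day length; numbers beside points are the labels' sample numbers, bars the group mean and whiskers the SD. Single arrays stand out for Dio2 (54), Thra 1454675_at (38) and Crym (14), while all 5 bed nucleus values of Klf9 1428288_at lie above the 6 preoptic values.

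Thrb, the second receptor gene, was read by 1 probe set, 1422202_at, close to the array median. It read 20 and 19 in short days and 17, 13 and 15 in long days in the bed nucleus. The preoptic values were 17, 17 and 15 in short days and 17, 20 and 21 in long days. Short days were higher without overlap in the bed nucleus, where 10.2% of all probe sets were likewise separated upward, whereas preoptic short-day values were at or under 17 and met the long-day ones there. The short-day difference was 0.39 ± 0.15 in the bed nucleus (unadjusted p = 0.0183, adjusted p = 0.285, limma) and -0.24 ± 0.13 in the medial preoptic area (adjusted p = 1).

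The bed nucleus effect on Thrb minus the preoptic effect was 0.63 ± 0.20, with an interval of 0.21 to 1.05, the smallest unadjusted p of the 14 in that test (0.00559) but an adjusted p of 0.470 (limma). In that test 0% of all probe sets passed. At an unadjusted p under 0.05, 3 of the 14 members were above 0 and 0 below, beside 3.91% and 4.44% of all probe sets. Over the alternatives the value stayed between 0.53 and 0.72, with adjusted p-values of 0.334 to 0.786. The 4 group means of Thrb were 19.5 ± 0.707 (SD) and 15.0 ± 2.00 in the short- and long-day bed nucleus and 16.3 ± 1.15 and 19.3 ± 2.08 in the short- and long-day medial preoptic area. Besides Thrb, the members under that unadjusted level were the Klf9 probe sets 1456341_a_at (0.59) and 1428289_at (0.41). Of the 7 Klf9 probe sets 5 were above 0 and 2 below in that test, and the brightest, 1428288_at, gave 0.07.

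Crym, the cytoplasmic binding protein, was likewise near the median. Its probe set 1416776_at read 14 and 23 in short days and 24, 21 and 24 in long days in the bed nucleus, against 18, 20 and 21 in short days and 22, 20 and 19 in long days in the medial preoptic area. The groups overlapped in both nuclei. The short-day difference in the bed nucleus was -0.36 ± 0.17 (unadjusted p = 0.0541, adjusted p = 0.403, limma), and it was 0.00 without short-day array 4, the one that read 14. The preoptic difference was -0.05 ± 0.16 (adjusted p = 1), and between the nuclei 0.02 ± 0.12 (adjusted p = 0.960).

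Klf9, the hormone-inducible transcription factor, was read far above the array median by the probe set 1428288_at, which stood at the 99.1 percentile of all probe sets by mean. It read 1437 and 1493 in short days and 1465, 1909 and 1550 in long days in the bed nucleus. Preoptic values were 1211, 1172 and 1087 in short days and 1393, 1329 and 1340 in long days. Every bed nucleus array lay above every preoptic array, and every short-day preoptic array lay below every long-day one.

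Neither of these Klf9 separations passed the threshold. Bed nucleus minus medial preoptic area was 0.31 ± 0.10 on the log2 scale, a 1.24-fold higher signal, with an interval of 0.11 to 0.51 (unadjusted p = 0.00467, adjusted p = 0.156, limma). It was 0.27 ± 0.13 in long days (adjusted p = 0.472) and 0.34 ± 0.14 in short days (adjusted p = 0.396). Of all probe sets 0.703% were higher and 0.769% lower in the bed nucleus without overlap, and of the 14 members this 1 was higher. The short-day difference was -0.23 ± 0.13 in the medial preoptic area (unadjusted p = 0.0891, adjusted p = 1), where 2 of the 14 were lower without overlap, both of them Klf9, and 0 higher, beside 2.55% and 2.64% of all probe sets. In the bed nucleus it was -0.15 ± 0.14 (adjusted p = 0.699, limma), and in the mean of both nuclei -0.19 ± 0.10 (unadjusted p = 0.0595, adjusted p = 0.568). The order of the group means was bed nucleus long days (1641 ± 236, SD), bed nucleus short days (1465 ± 39.6), medial preoptic area long days (1354 ± 34.2) and medial preoptic area short days (1157 ± 63.4); the bed nucleus groups overlapped with each other.

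The highest Klf9 value came from the long-day bed nucleus array 2. On that array the thalamic markers Slc17a6, Tcf7l2 and Prkcd read 136, 141 and 74, their highest values of the 11 arrays. Markers of other cells were highest there too: Gja1 (4533), Slc1a3 (84), Aqp4 (20), Snap25 (893), Ttr (81), Otx2 (24), Rsph1 (34) and Mobp (46). Others, such as Gfap (108) and Syt1 (40), were not. Mean Slc17a6 was 51.4 in the bed nucleus and 70.7 in the preoptic area, and mean Tcf7l2 was 71.6 and 41.2. Without long-day bed nucleus array 2, bed nucleus minus medial preoptic area was 0.15 in long days and 0.25 over both day lengths (adjusted p = 0.312, limma). The bed nucleus day length difference was then -0.04. The part of any of these cells, or of the punch position, in the Klf9 values was not tested.

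The other 6 Klf9 probe sets read 7 to 35, and 2 of them are annotated to the same source sequence record as the bright one. They did not repeat its pattern as a group. Bed nucleus minus medial preoptic area was above 0 for 4 of the 7, the bright one among them, and below 0 for 3. In the bed nucleus the day length differences of the 7 ran in both directions, 4 above 0 and 3 below, the bright one among those below. The probe set 1456341_a_at read 27 and 35 in short days against 19, 24 and 25 in long days (0.45 ± 0.15, adjusted p = 0.231, limma), and 1428289_at read 15 and 18 against 13, 12 and 12 (0.41 ± 0.14, adjusted p = 0.234). In the opposite direction, 1436763_a_at read 20 and 17 in short days against 26, 26 and 23 in long days (-0.44 ± 0.14, adjusted p = 0.192, limma). No overlap between the groups was found for these 3 of the Klf9 probe sets in the bed nucleus, beside 10.2% of all probe sets higher and 13.5% lower without overlap.

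The probe set 1436763_a_at differed in the same direction as the bright one in each of these comparisons. It read 16, 17 and 16 in short days and 19, 18 and 20 in long days in the medial preoptic area, also without overlap (-0.22 ± 0.12, adjusted p = 1, limma). In the mean of both nuclei its short-day difference was -0.33 ± 0.09, the smallest unadjusted p of the members (0.00209) with an adjusted p of 0.369 (limma), and bed nucleus minus medial preoptic area was 0.29 ± 0.09 (adjusted p = 0.173). Over the alternatives the mean day length difference stayed between -0.39 and -0.27, with adjusted p-values of 0.287 to 0.602. The ending _a_at marks probes shared by several transcripts of a gene. The probe set 1456341_a_at carries it too, and its day length difference in the bed nucleus had the opposite sign (0.45).

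**Figure D3:**
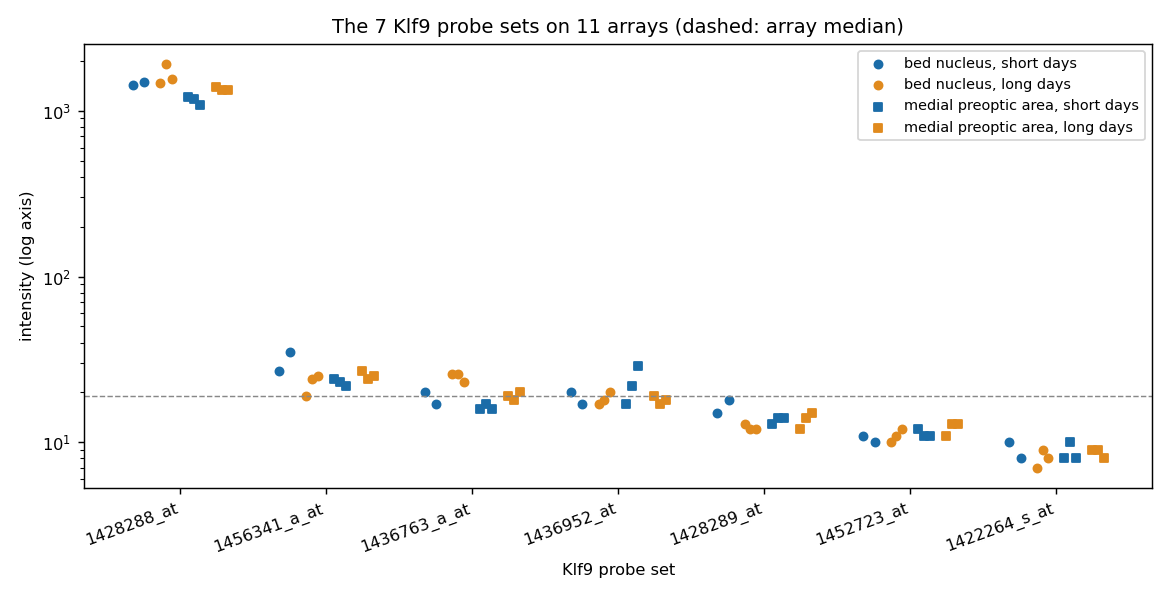
Intensity on a log axis of the 7 Klf9 probe sets on the 11 arrays, by nucleus (circles, bed nucleus; squares, medial preoptic area) and day length (blue, short; orange, long); the dashed line is the array median of 19. One probe set reads between 1087 and 1909 and the other 6 between 7 and 35.

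Between the nuclei, too, 0 of the 14 probe sets passed in limma, whether over both day lengths (1.03% of all probe sets passed), in long days (0.128%) or in short days (0.354%). Unadjusted p-values under 0.05 were found for 3 of the 14 over both day lengths, all higher in the bed nucleus (5.72% of all probe sets were higher and 6.14% lower). These were the Klf9 probe sets 1428288_at and 1436763_a_at and the dimmer Thra probe set. In long days 3 were higher and 1, Thrb, lower (5.6% and 4.89% of all probe sets), and 3 were higher without overlap and 0 lower (6.69% and 5.5%). In short days 2 were higher, both Klf9, and 0 lower (4.51% and 5.81%), and 4 were higher without overlap and 0 lower (8.86% and 10.6%). The median difference of the members was 0.05 over both day lengths, beside 0.00 for all probe sets. The 42 intervals of these comparisons ran no further than -0.65 and 0.78.

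The array pattern of each gene was set against those of all probe sets of 1 other gene with a mean above the median, by the root mean square of the difference of centred log2 values over the 11 arrays, where a smaller value is more alike and the median over 10250 to 10254 candidates was 0.26 to 0.27. Nearest to Klf9 1428288_at were Rbm14 (0.08), Ywhaz (0.10) and Atp1b1 (0.10), all highest on the long-day bed nucleus array 2, as Klf9 was. Nearest to Dio2 1418937_at were Dus1l (0.07), Phf21a (0.08) and Cpd (0.09), all highest on the long-day bed nucleus array 1, as Dio2 was. Nearest to Thra 1454675_at were Wtap (0.08), Gatc (0.10) and Cog1 (0.10), all highest on the short-day preoptic array 5, as Thra was. Nearest to Crym were Trappc12 (0.07), Rbl1 (0.10) and Vps29 (0.11), and nearest to Thrb were Ndufaf7 (0.11), Pramel7 (0.12) and Mrpl48 (0.12). Trappc12 and Vps29 were lowest on the short-day bed nucleus array 4, as Crym was. For these 4 genes the array that stood out enters the likeness itself. Genes picked by it therefore tend to share that array, and the sharing is no separate result.

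The wider pathway was followed through a list of 34 genes of hormone inactivation, transport, receptor partners, coregulators, the pituitary axis and hormone-responsive genes, of which 28 had a probe set with 1 symbol (56 probe sets). The other genes of the list were not analysed here. For day length, 0 of the 56 passed in limma in the bed nucleus, in the preoptic area and in the mean of both. In the bed nucleus 9 had an unadjusted p under 0.05, 8 higher and 1 lower, beside 5.79% and 6.87% of all probe sets. In the preoptic area 3 did, 1 higher and 2 lower, beside 3.5% of all probe sets with both directions counted together. The mean of both gave 5 higher and 2 lower, beside 4.46% and 4.56%. The median difference of the 56 was 0.02 in the bed nucleus and -0.08 in the medial preoptic area, beside -0.01 and 0 for all probe sets.

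By role, Dio1, the other activating deiodinase, read 15 and 12 in short days and 10, 11 and 9 in long days in the bed nucleus, without overlap (0.43 ± 0.18, unadjusted p = 0.0286, adjusted p = 0.328, limma). All of its values were under the array median, and its preoptic difference was -0.07 ± 0.16 (adjusted p = 1). The transport genes had 4 probe sets above and 3 below 0 in the bed nucleus and 1 above and 6 below in the medial preoptic area. The retinoid X receptors, which pair with Thra and Thrb on DNA, had 2 and 2 in either nucleus, and the coregulators had 6 above and 12 below in the bed nucleus and 9 and 9 in the medial preoptic area. The pituitary axis probe sets had 6 and 3 and then 4 and 5, and the hormone-responsive probe sets 10 and 7 and then 3 and 14. Of the 17 hormone-responsive probe sets 8 belonged to Mbp and 3 to Camk4, so the counts are not of separate genes. The median difference of these 17 was 0.06 in the bed nucleus and -0.15 in the medial preoptic area, beside -0.01 and 0 for all probe sets. The smallest p-values in the bed nucleus belonged to the coactivator subunit Med1 (0.61 ± 0.17, adjusted p = 0.151, limma), the retinaldehyde dehydrogenase Aldh1a1 (0.50 ± 0.16, adjusted p = 0.211) and the kinase Camk4 (0.41 ± 0.14, adjusted p = 0.234). Med1 probe set 1448708_at read 33 and 30 in short days and 20, 17 and 26 in long days, and of the 6 Med1 probe sets 3 were above 0 (0.28 to 0.61) and 3 below (-0.29 to -0.10). In the medial preoptic area they belonged to Ttr, the thyroxine carrier of the choroid plexus (1454608_x_at, -0.54 ± 0.22, beside -0.46 and 0.06 for its other probe sets), to Rasd2 (-0.49 ± 0.22) and to a further Med1 probe set (0.32 ± 0.15), all with an adjusted p of 1. In the mean of both nuclei Camk4 was at 0.28 ± 0.10, Med1 at 0.31 ± 0.11 and the receptor Trhr at 0.31 ± 0.13 (adjusted p of 0.423, 0.460 and 0.486, limma).

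Between the nuclei, 3 of the 56 passed over both day lengths, all higher in the bed nucleus, where 0.464% of all probe sets passed upward. Rasd2, a small GTPase of striatal neurons whose gene responds to thyroid hormone in the rat striatum, read 89 and 94 in short days and 151, 80 and 74 in long days in the bed nucleus, against 42, 45 and 27 in short days and 59, 46 and 52 in long days in the medial preoptic area. The nuclei did not overlap, and the log2 difference was 1.09 ± 0.16 (adjusted p = 0.00126, limma). It passed in 20 of 20 alternatives. In short days alone it was 1.30 ± 0.24 (adjusted p = 0.0228), the 1 pathway probe set to pass there, beside 0.146% of all probe sets upward. That call was lost without either short-day bed nucleus array or the short-day preoptic array 6, and with only the arrays compared (adjusted p = 0.292, limma). In long days it was 0.89 ± 0.22 (adjusted p = 0.126), and 1 further Rasd2 probe set gave 0.25 over both day lengths (adjusted p = 0.366).

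Camk4, a calcium-dependent kinase of neurons, had 1 of its 3 probe sets past the threshold. The probe set 1426167_a_at read 26 and 32 in short days and 27, 28 and 28 in long days in the bed nucleus, against 22, 18 and 14 and 21, 18 and 23 in the medial preoptic area. The nuclei did not overlap (0.57 ± 0.12, adjusted p = 0.0200, limma), but the other Camk4 probe sets gave -0.13 and 0.09. The call was lost without the short-day bed nucleus array 5 (adjusted p = 0.142), the long-day bed nucleus array 1 (0.0518) or the long-day preoptic array 2 (0.0725), and with the sample number as a fixed replicate block (0.0547).

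Ncoa1, the steroid receptor coactivator that also binds the thyroid hormone receptors, read 211 and 241 in short days and 306, 231 and 227 in long days in the bed nucleus, against 172, 176 and 117 and 193, 161 and 196 in the medial preoptic area (1418594_a_at). The nuclei did not overlap, and the difference of 0.52 ± 0.12 passed narrowly (adjusted p = 0.0461, limma). It passed in 8 of 20 alternatives, with adjusted p-values of 0.0232 to 0.216, and was lost without any one of the arrays other than short-day preoptic array 5. The second Ncoa1 probe set gave 0.14 ± 0.12.

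In long days alone the next smallest p-values were those of Ttr 1454608_x_at (-0.75 ± 0.22, adjusted p = 0.208, limma; the Ttr probe sets 1455913_x_at and 1451580_a_at gave -0.75 and 0.27) and Ncoa1 (0.47 ± 0.16, adjusted p = 0.312). In short days they were those of Camk4 (0.70 ± 0.17, adjusted p = 0.0872, limma) and of Nrgn, the postsynaptic calmodulin-binding protein neurogranin, a known thyroid hormone target in rodent forebrain (0.58 ± 0.16, adjusted p = 0.150).

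The striatal markers measured beside these genes moved the same way. Of 6 listed, Ppp1r1b, Rgs9 and Pde10a were measured, and their sums were 165 to 184 in short days and 134 to 239 in long days in the bed nucleus, against 80 to 112 and 117 to 140 in the medial preoptic area. All 3 were higher in the bed nucleus past the threshold (0.58, 0.71 and 0.60; adjusted p = 0.0215, 0.0487 and 0.0471, limma). On the long-day bed nucleus array 1, where Rasd2 and Ncoa1 were highest, Rgs9 (144), Ppp1r1b (29) and Pde10a (66) also had their highest values of all arrays. On the short-day preoptic array 6, where Rasd2, Camk4 and Ncoa1 were lowest, Rgs9 read 32, its lowest value, whereas Ppp1r1b (16) and Pde10a (32) were the highest of the 3 short-day preoptic values. Their part in the higher signal of the 3 pathway genes was not tested.

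**Figure D4:**
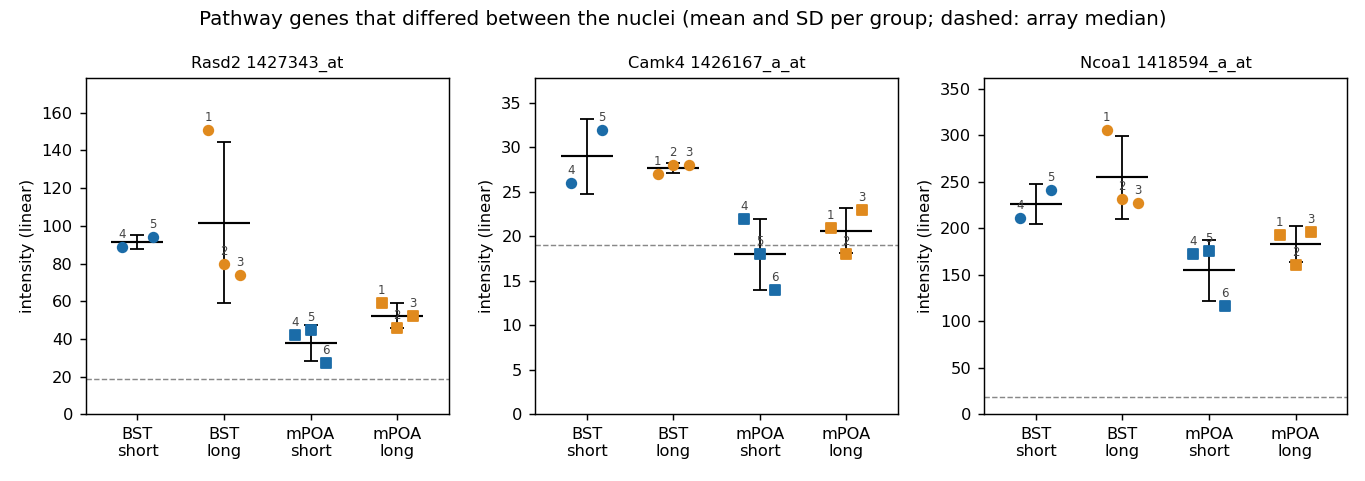
Deposited intensity (vertical axis, linear, from 0) of the 3 pathway probe sets that passed between the nuclei, on each array; numbers are the labels' sample numbers, bars the group mean, whiskers the SD and the dashed line the array median. In each panel all 5 bed nucleus arrays (BST) lie above the 6 preoptic arrays (mPOA).

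The test of whether the day length effect differed between the nuclei called 0 of the 56 pathway probe sets in limma, with 8 unadjusted p-values under 0.05, 6 above 0 and 2 below, beside 3.91% and 4.44% of all probe sets. The smallest belonged to Aldh1a1 (0.71 ± 0.22, adjusted p = 0.450), which read 15 and 18 in short days and 13, 11 and 11 in long days in the bed nucleus, against 13, 11 and 16 and 17, 14 and 15 in the medial preoptic area. Cga, the common subunit of the pituitary glycoprotein hormones, followed at 0.51 ± 0.19 (adjusted p = 0.522, limma), and Med1 at 0.59 ± 0.23 (adjusted p = 0.527). All Aldh1a1 and Cga values were at or below the array median of 19.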

How the data were processed

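The authors deposited probe set intensities on a linear scale for 11 arrays, made with RMA 3.4 per the submitters' processing notes. The values are whole numbers with the same median on every array, which shows normalization across arrays and rounding. What else was done is not stated in the sources used here. Groups and sample numbers came from the sample descriptions, which do not name animals, so p-values measure the spread between these samples. After 64 control probe sets were set aside, log2 of the intensities was fitted with limma 3.58.1 in R 4.3.3, with 4 group means over all arrays and 7 comparisons (7 residual and 12.9 prior degrees of freedom). Two-sided p-values were adjusted over the 22626 probe sets (Benjamini-Hochberg). The number of arrays limits the precision. Gene names came from the platform annotation, where 20380 probe sets carry 1 symbol, 691 several and 1555 none.

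The members and the lists were chosen with earlier results of these data known. Named were all member probe sets, pathway probe sets past the threshold, the 3 pathway genes with the smallest p per comparison, and the 3 genes most like each member. Dio1, Mbp, further probe sets of those genes and the markers were named beside them after their values were seen. The fit was tested on simulated data with changes placed only in probe sets with a mean above the median, so that test did not cover the dimmer members. The alternatives were quantile normalization, median centring, removal of dim probe sets, a trended prior, array weights, 1 probe set per gene, noise that undoes the rounding, the compared arrays alone, each array left out, and a replicate block. No sequences were used here.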

Additional observations from a re-analysis of the deposited data

How the results depend on the processing

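The count of member probe sets past the threshold was 0 in all 141 recomputations over the 7 comparisons. Of 1862 differences recomputed for single members, 54 changed sign, none of them past the threshold before or after. The count of pathway probe sets was 0 in the day length comparisons under every alternative run. Between the nuclei over both day lengths it was 3, and leaving out each array in turn gave 1 to 3, with 1 without the long-day bed nucleus array 1 or the long-day preoptic array 2. Without the short-day bed nucleus array 5 it was 2, Rasd2 and a probe set of the myelin gene Mbp (adjusted p = 0.0474, limma), since Camk4 and Ncoa1 were lost. In short days it was 1, and 0 to 1 without single arrays (0 without either short-day bed nucleus array or the short-day preoptic array 6), and 0 with only the arrays compared, where fewer samples estimate the spread. In long days it was 0, and 1 with the sample number as a fixed replicate block, a fit in which the unmatched short-day preoptic array 6 carries no weight. Over both day lengths that block gave 2, Rasd2 and Ttr 1455913_x_at (-0.55, adjusted p = 0.0425, limma), and lost Camk4 (0.0547) and Ncoa1 (0.0757). Same-numbered samples of the nuclei did not deviate together (correlations of -0.03 to 0.07 over probe sets, which are not independent). The labels do not say whether a shared number marks the same animal. Deviations from the means of such small groups cannot decide it, so pairing remains unknown. A random replicate block (consensus correlation 0.01) left the counts at 3, 1 and 0. Signals near the array median limit what Thrb, Crym and the dimmer probe sets can show.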
